A study of Rattus norvegicus with 6 samples.

Results

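Mitochondria carry their own small genome, whose protein genes all encode subunits of the respiratory chain or of the ATP synthase. The results concern 10 of these genes, chosen by symbol among the 17273 genes of the deposited table: Mt-nd1, Mt-nd2, Mt-nd4, Mt-nd4l and Mt-nd5 of complex I, Mt-cyb of complex III, Mt-co1, Mt-co2 and Mt-co3 of complex IV, and Mt-atp6 of complex V. The rule used no measured value, but the genes were chosen with earlier results of these data known. RNA was sequenced from cultured nucleus pulposus cells, which fill the soft centre of the intervertebral disc and were described as wild type and taken from male Sprague Dawley rats. Cells of the lactate group received 10 mM lactate for 8 h (3 libraries), and cells of the control group received no treatment (3 libraries). All were grown in DMEM with fetal bovine serum. The labels give neither the age of the rats nor the chemical form of the lactate. Nothing states that replicates are independent cultures or animals, so p-values speak for library-to-library spread, possibly a technical one.

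Both strands of the circular mitochondrial genome are transcribed as long precursors that span many genes. Excision of the tRNAs that lie between most genes releases the individual mRNAs, and differences in processing, translation and decay are known to set their levels apart. Mt-nd4l and Mt-nd4 overlap and share 1 mRNA, as do Mt-atp8 and Mt-atp6. The finished subunits join subunits imported from the cytosol, which nuclear genes encode. Disc cells live with little oxygen and are known for relying on glycolysis, with lactate as its end product.

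Libraries held 30291357 to 38989574 counts. Each of the 10 genes was counted in each library, with between 2483 and 773287 counts, so counting error was small beside the spread between libraries. Cell type markers were uneven. Acan of nucleus pulposus cells averaged 2289.6 CPM (counts per 1e6 counts of a library, scaled with TMM factors as described below) in lactate and 2393 in control libraries, while the notochordal gene Tbxt had 0 counts in lactate and 12 in control libraries. The list of markers for the labelled cell type and notochord had 8 members tested, with 1 higher and 3 lower. Cd24 was higher, at 2.32 on the log2 scale, and Foxa2 (−1.97), Cdh2 (−1.11) and Pax1 (−0.88) were lower. Col2a1, of the same list, was nearly absent, with 0.75 CPM in lactate and 0.28 CPM in control libraries. Of 8 fibroblast and annulus markers tested, 4 were higher and 2 lower (Pdgfra at −1.42 and Mkx at −2.36 on the log2 scale), where 31.4% of all genes tested were higher and 34.6% lower. Their summed level ranged from 107148 to 155755 CPM in lactate libraries and from 32660 to 38060 CPM in control libraries, nearly all of it Col1a1, which averaged 124372 CPM in lactate and 31785 CPM in control libraries. Of 5 smooth muscle and pericyte markers tested, 2 were higher (Des at 1.99 and Mcam at 1.79) and 2 lower (Myh11 at −1.17 and Pdgfrb at −1.27). Their summed level was 853 to 1092 CPM in lactate and 863 to 1088 CPM in control libraries, mostly Acta2, which was not called. Macrophage markers stayed at or under 10.7 CPM in all libraries. The part of these shifts in the results below was not tested. Control replicate 1 stood apart from the other controls, with the lowest share of library counts of the 3 controls for all 10 genes, at 0.635 to 0.765 times the mean of the other controls.

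The 10 genes together took overlapping shares of the counts of lactate and control libraries, while the make-up of the sum differed. They held 3.07, 2.96 and 3.06% of the counts in lactate replicates 1, 2 and 3, against 2.64, 3.71 and 3.51% in control replicates 1, 2 and 3. The lactate libraries lay inside the range of the control libraries. The means were 3.03% ± 0.0604 and 3.29% ± 0.568 (SD, n = 3 each; two-sided exact permutation test, p = 0.40, where the smallest possible p is 0.10). On the TMM scale used for single genes below, the sum was instead higher, with 42618, 42190 and 37929 CPM in lactate libraries, against 19418, 28030 and 25928 CPM in control libraries, and the groups did not overlap (exact permutation p = 0.10, the smallest possible). Whether the sum differed thus depended on the scaling. Wilson 95% intervals of the shares of library counts were at most 0.0122 percentage points wide and cover counting error only. Without Mt-co1 the remaining 9 genes took 0.815, 0.791 and 0.878% of lactate libraries, against 1.37, 1.98 and 1.86% of control libraries, with no overlap (exact permutation p = 0.10, the smallest possible).

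Mt-co1 encodes the catalytic core of cytochrome c oxidase, where oxygen is reduced. It made up 73.5, 73.3 and 71.3% of the summed counts of the 10 genes in the lactate libraries, against 48.3, 46.7 and 47.1% in the control libraries. The groups were far apart, with little spread within either. The other 9 genes made up 27.3% ± 1.23 of the sum in lactate libraries, against 52.7% ± 0.847 in control libraries (SD, n = 3). The 5 complex I genes held 7.24% ± 0.559 of the sum in lactate and 21.2% ± 1.05 in control libraries. Mt-cyb held 8.33% ± 0.460 in lactate and 13.5% ± 0.122 in control libraries, and Mt-co2 1.82% ± 0.176 in lactate and 6.59% ± 0.183 in control libraries. Mt-atp6 alone kept overlapping shares, 1.01 to 1.12% in lactate and 1.10 to 1.21% in control libraries. Although control replicate 1 stood apart in the summed level, its shares lay beside those of the other controls. Such shares do not depend on how libraries are scaled to each other, but a rise of one member lowers the shares of all others.

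**Figure D1:**
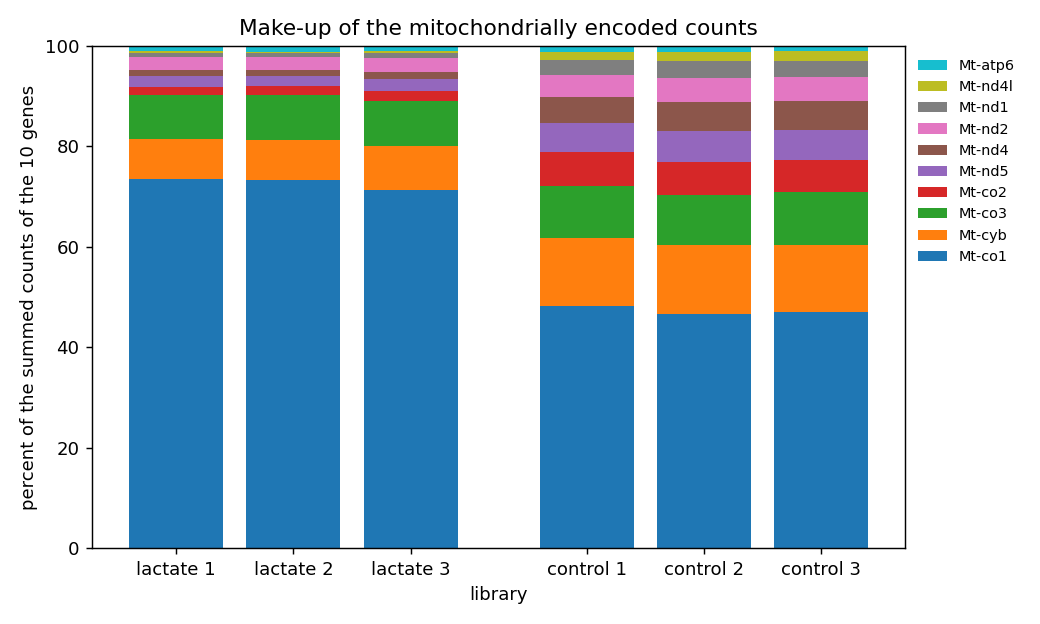
Percent of the summed counts of the 10 mitochondrially encoded genes taken by each gene, 1 bar per library, lactate libraries on the left and control libraries on the right. Mt-co1 fills 71.3 to 73.5% of the lactate bars and 46.7 to 48.3% of the control bars.

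Levels of single genes are given as CPM scaled with TMM factors, which bring the bulk of genes to the same level, and tested with edgeR's quasi-likelihood test over 13747 genes, with calls at a Benjamini-Hochberg adjusted p under 0.05. Over all genes tested the median log2 fold change was −0.10 in this fit but −0.96 in a fit on unadjusted library totals, so values from that fit are given as well. All 10 genes passed the filter on low counts. With TMM factors 3 of them were higher (Mt-co1, Mt-co3 and Mt-atp6), 5 lower (Mt-nd1, Mt-nd4, Mt-nd4l, Mt-nd5 and Mt-co2) and 2 not called (Mt-nd2 and Mt-cyb), where 31.4% of all genes tested were higher and 34.6% lower, 66.0% in all. All 10 lay among the 2749 most abundant genes, of which 59.3% were higher and 19.8% lower, with a median log2 fold change of 0.55. The median of the 10 genes was −0.45. Library totals gave 1 gene higher (Mt-co1) and 8 lower, against 12.5% of all genes higher and 61.8% lower, 74.3% in all. The 5 genes called lower and Mt-co1 had their direction and call with both scalings. The groups did not overlap in CPM for 8 of the 10 genes (3 above, 5 below), against 72.2% of all genes tested (33.7% above, 38.4% below). In percent of library counts they did not overlap for 8 of the 10 genes either, against 78.6% of all genes tested. In bulk RNA, fewer cells of a type and less RNA per cell cannot be told apart.

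**Figure D2:**
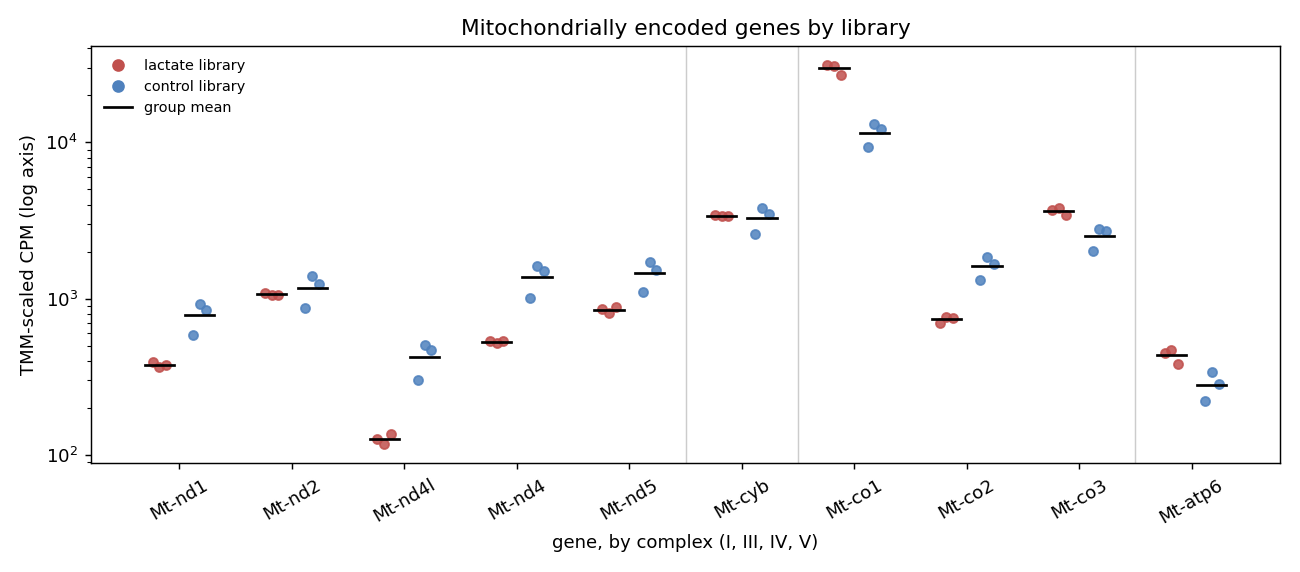
TMM-scaled CPM on a log axis for each of the 10 genes, ordered by complex, with lactate libraries left of control libraries, a point per library and a bar at the group mean. Mt-co1 stands at 27027 to 31313 CPM in lactate libraries, above its 9378 to 13083 in control libraries, while Mt-nd4l lies at 117 to 136 CPM in lactate libraries, below its 304 to 505 in control libraries.

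Complex I, the NADH dehydrogenase, takes electrons from NADH and pumps protons. Mt-nd4l, a small subunit of its membrane arm, had the largest decrease of the 10. It stood at 126, 117 and 136 CPM in lactate replicates 1, 2 and 3, against 304, 505 and 468 CPM in control replicates 1, 2 and 3. Every lactate library was below every control library. Mt-nd4l was 3.37-fold lower (log2 fold change −1.75 with an SE of 0.18; edgeR adjusted p = 5e-05; −2.60 with library totals). The SE of fold changes is given in the same way, after ±, from here on. Mt-nd4, a proton-pumping subunit read from the same mRNA, stood at 533, 519 and 538 CPM in lactate libraries, against 1015, 1610.0 and 1507 CPM in control libraries. The groups were far apart and the lactate libraries nearly equal. Mt-nd4 fell by 1.38 ± 0.16 on the log2 scale (edgeR adjusted p = 0.0001), and was at −2.23 with library totals.

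Mt-nd1, the subunit at the junction where ubiquinone binds, stood at 392, 364 and 377 CPM in lactate libraries, against 582, 924 and 847 CPM in control libraries. The lactate libraries were again all below the controls, of which replicate 1 was the lowest. Mt-nd1 was 2.08-fold lower (log2 fold change −1.05 ± 0.16; edgeR adjusted p = 0.00045; −1.91 with library totals). Mt-nd5, another proton-pumping subunit, stood at 853, 815 and 884 CPM in lactate libraries, against 1109.9, 1729 and 1533 CPM in control libraries. It was 1.71-fold lower, with no overlap (−0.78 ± 0.15; edgeR adjusted p = 0.0020; −1.63 with library totals). Mt-nd2, the third of the proton-pumping subunits, differed from these. It stood at 1089.7, 1061 and 1050.3 CPM in lactate libraries, against 871, 1388 and 1246 CPM in control libraries. The lactate values lay between control replicate 1 and the other controls. Mt-nd2 was not called (−0.13 ± 0.16; edgeR adjusted p = 0.49), was called lower with library totals (−0.99; edgeR adjusted p = 0.00049), and depended on single controls. It was at −0.31 and called without control replicate 1 (edgeR adjusted p = 0.019), and at 0.0099 without control replicate 2.

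Mt-cyb encodes cytochrome b, the only subunit of complex III (the cytochrome bc1 complex) made in the mitochondrion. It stood at 3449.5, 3388 and 3359.5 CPM in lactate libraries, against 2605, 3813 and 3468 CPM in control libraries. The control libraries spread around the lactate libraries. Mt-cyb was not called (0.04 ± 0.14; edgeR adjusted p = 0.79), but was called lower with library totals (−0.81; edgeR adjusted p = 0.00052).

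The complex IV genes went in opposite directions. Mt-co1 stood at 31313, 30913 and 27027 CPM in lactate libraries, against 9378, 13083 and 12201 CPM in control libraries. The lowest lactate library was above the highest control library. Mt-co1 was 2.58-fold higher (1.36 ± 0.14; edgeR adjusted p = 5e-05) and was still called higher with library totals (0.50 ± 0.11; edgeR adjusted p = 0.0028). Mt-co2, the subunit that receives electrons from cytochrome c, stood at 701, 762 and 757 CPM in lactate libraries, against 1318, 1837 and 1666 CPM in control libraries. It was below the controls in all lactate libraries and was 2.17-fold lower (−1.12 ± 0.13; edgeR adjusted p = 8.6e-05; −1.97 with library totals). Mt-co3, the third subunit of the mitochondrially encoded core, stood at 3707, 3779.8 and 3414 CPM in lactate libraries, against 2015, 2802 and 2707 CPM in control libraries. It was called higher with TMM factors (0.53 ± 0.13; edgeR adjusted p = 0.0067) and lower with library totals (−0.33; edgeR adjusted p = 0.029), so its direction depended on the scaling.

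Mt-atp6 encodes subunit a of the ATP synthase, part of its proton channel. It stood at 452, 471 and 385 CPM in lactate libraries, against 221, 339 and 284 CPM in control libraries, with no overlap. It was called higher with TMM factors (0.63 ± 0.16; edgeR adjusted p = 0.0069), lost the call with library totals (−0.23; edgeR adjusted p = 0.16), and had overlapping groups in percent of library counts (0.0310 to 0.0331% in lactate and 0.0301 to 0.0449% in control libraries).

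Of the other mitochondrially encoded genes, the table lists Mt-nd3, Mt-nd6 and Mt-atp8. Mt-nd3, of complex I, was lower with 77.2 ± 15.5 CPM in lactate and 162 ± 3.81 CPM in control libraries (SD, n = 3; log2 fold change −1.07 ± 0.14; edgeR adjusted p = 0.00019). Mt-nd6, of complex I and the only protein gene read from the opposite strand, was lower with 171 ± 10.2 CPM in lactate and 271 ± 61.2 CPM in control libraries (−0.66 ± 0.16; edgeR adjusted p = 0.0061). Without a stated strand setting, reads of Mt-nd6 and of the antisense precursor cannot be told apart. Mt-atp8 of complex V was not called with TMM factors (0.36 ± 0.17; edgeR adjusted p = 0.088) but was called lower with library totals (−0.50, edgeR adjusted p = 0.015). Library totals gave −1.92 for Mt-nd3 and −1.52 for Mt-nd6. In the order of the genome, the neighbours Mt-atp8, Mt-atp6 and Mt-co3 had log2 fold changes of 0.36, 0.63 and 0.53 with TMM factors. With library totals they were at −0.50, −0.23 and −0.33. The run from Mt-nd3 to Mt-nd6 had log2 fold changes between −1.75 and −0.66 with TMM factors. Mt-co1 and Mt-co2, also neighbours, differed most, at 1.36 and −1.12. The authors' deposited table gives log2 fold changes of 1.33 for Mt-co1, −1.15 for Mt-co2 and −1.79 for Mt-nd4l.

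**Figure D3:**
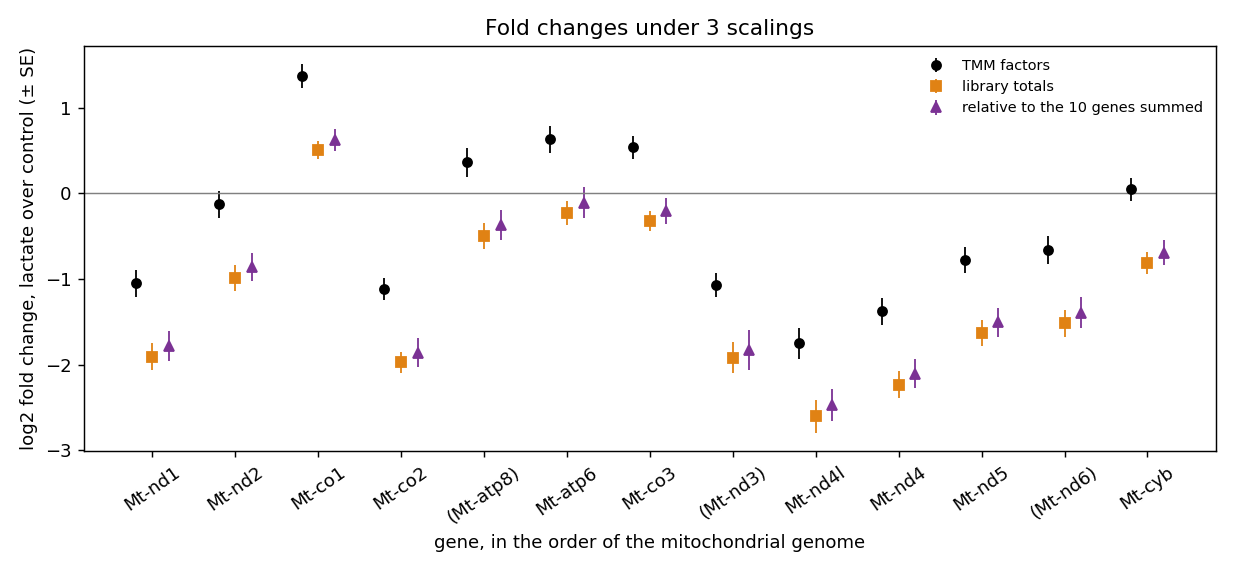
Log2 fold change of lactate over control (± SE) for the 13 mitochondrially encoded genes of the table, in their order along the mitochondrial genome, under 3 scalings: TMM factors, library totals, and relative to the sum of the 10 genes. Genes in brackets are not among the 10. A change of scaling shifts all genes by nearly the same amount, with Mt-co1 at 1.36, 0.50 and 0.62 and Mt-nd4l at −1.75, −2.60 and −2.47, while Mt-co3 and Mt-atp6 are above 0 with TMM factors and below 0 with the other scalings.

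A fit with the library size set to the summed counts of the 10 genes gave each gene's change relative to that sum. Mt-co1 was higher (0.62 ± 0.13; edgeR adjusted p = 0.0007) and 7 genes were lower, against 11.0% of all genes tested higher and 55.0% lower in this fit, 65.9% in all. Relative to the sum, Mt-nd4l fell by 2.47 ± 0.19, Mt-nd4 by 2.11 ± 0.17, Mt-co2 by 1.86 ± 0.17, Mt-nd1 by 1.78 ± 0.17 and Mt-nd5 by 1.51 ± 0.17 on the log2 scale. Mt-nd2 (−0.86 ± 0.16) and Mt-cyb (−0.69 ± 0.15), neither called with TMM factors, were also lower. Mt-co3 (−0.21 ± 0.15; edgeR adjusted p = 0.23) and Mt-atp6 (−0.11 ± 0.18; edgeR adjusted p = 0.60) were not called. Because Mt-co1 made up most of the lactate sum, the same fit against the sum without Mt-co1 moved the others up. Mt-co3 (0.74) and Mt-atp6 (0.84) were then called higher, and Mt-nd2 (0.085) and Mt-cyb (0.25) were above 0 and not called.

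Ratios between pairs of genes within a library were compared for 6 pairs. Mt-co1 had 44.7, 40.6 and 35.7 counts per count of Mt-co2 in lactate libraries, against 7.12, 7.12 and 7.32 in control libraries. The control libraries were nearly equal and the lactate libraries were all several times higher. The log2 ratio was 5.33 ± 0.162 in lactate and 2.85 ± 0.0237 in control libraries (SD, n = 3), a difference of 2.48. Mt-co1 over Mt-co3 was also higher in lactate libraries, by 0.83 on the log2 scale. Mt-nd1 over its neighbour Mt-nd2 was 0.360, 0.343 and 0.359 in lactate libraries, against 0.668, 0.665 and 0.680 in control libraries, a log2 difference of −0.92. Mt-nd5 over Mt-cyb differed by −0.82. Mt-nd4l over Mt-nd4, although read from 1 mRNA, was 0.236, 0.225 and 0.254 in lactate libraries, against 0.299, 0.314 and 0.311 in control libraries, a log2 difference of −0.37. These 5 ratios did not overlap between groups (exact permutation p = 0.10 each, the smallest possible; adjusted p = 0.12 over the 6 pairs). Mt-atp6 over its neighbour Mt-co3 overlapped, with 0.113 to 0.125 in lactate and 0.105 to 0.121 in control libraries (log2 difference 0.10; exact permutation p = 0.20, adjusted p = 0.20). Mt-atp8 over Mt-atp6, a pair on 1 mRNA added after its values were seen and not tested, differed by −0.27.

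Levels between genes can be compared only per length, with the deposited FPKM. For Mt-nd4l and Mt-nd4, which share an mRNA, FPKM used the lengths of single genes. Their separate places below thus rest on those lengths and on how reads were split. In the lactate libraries the order by median FPKM was Mt-co1, Mt-co3, Mt-cyb, Mt-co2, Mt-nd2, Mt-atp6, Mt-nd5, Mt-nd4l, Mt-nd1 and Mt-nd4. There Mt-co2 overlapped Mt-nd2, and the last 4 genes overlapped their neighbours among themselves. Within each lactate library every gene was above the next, except that Mt-co2 was above Mt-nd2 in 2 of 3. In the control libraries the order by median FPKM was Mt-co1, Mt-co3, Mt-cyb, Mt-co2, Mt-nd4l, Mt-nd2, Mt-nd4, Mt-nd1, Mt-nd5 and Mt-atp6. Among neighbours in that order, Mt-co1 and Mt-co3, Mt-co2 and Mt-nd4l, and Mt-nd5 and Mt-atp6 had ranges apart, and the other neighbours overlapped. Within each control library, however, every gene was above the next. Mt-atp6 was above 4 of the complex I genes in each lactate library and the lowest of the 10 in each control library. Mt-co1 was 4.02 to 4.29 times Mt-co3, the next highest, in lactate libraries, and 2.29 to 2.37 times in control libraries. From the highest to the lowest of the 10 genes FPKM spanned 44.8 to 53.2-fold in lactate and 17.0 to 18.9-fold in control libraries. Mt-co1 reached 14110.0, 13558 and 13640.3 FPKM in lactate libraries, against 8047, 10922 and 10409 FPKM in control libraries.

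Ranks by raw count within a library need no scaling between libraries, but they depend on transcript length and serve only to set the groups side by side for 1 gene. None of the 10 genes ranked nearer the top in all lactate libraries than in all control libraries. Among 17273 genes, Mt-co1 ranked 3 or 4 by count in both groups, while by FPKM it ranked 3, 3 and 2 in lactate libraries and 1 in each control library. Mt-co3 ranked 31 to 34 in lactate and 21 to 29 in control libraries, and Mt-cyb 33 to 42 in lactate and 17 to 19 in control libraries. Mt-co2 ranked 213 to 284 in lactate and 33 to 46 in control libraries. Mt-nd4 ranked 330 to 368 in lactate and 37 to 64 in control libraries, and Mt-nd4l 1234 to 1413 in lactate and 163 to 321 in control libraries. Mt-atp6 ranked 396 to 439 in lactate libraries and 288 to 485 in control libraries, an overlap that no other of the 10 genes except Mt-co1 had.

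Complexes I, III, IV and V join mitochondrially encoded and nuclear subunits. With TMM factors most nuclear subunits were higher, as were Mt-co1, Mt-co3 and Mt-atp6, whereas 4 of the 5 complex I genes and Mt-co2 were lower. Over all genes tested 31.4% were higher and 34.6% lower, and 59.3% were higher among the 2749 most abundant. Of 34 nuclear complex I subunits tested, 29 were higher and 1 lower (median log2 fold change 0.92; 0.07 with library totals). Ndufb11 was at 1.77 ± 0.15 and Ndufa7 at 1.69 ± 0.13. Of the complex III subunits 8 of 9 were higher (median 0.99; 0.14 with library totals), with Uqcrh at 1.72 ± 0.17. Of the complex IV subunits 10 of 10 were higher (median 1.48; 0.62 with library totals), with Cox8a at 1.83 ± 0.10, and of the complex V subunits 14 of 15 (median 1.19; 0.33 with library totals), with the catalytic subunit Atp5f1b at 1.89 ± 0.15. With library totals, where 12.5% of all genes were higher and 61.8% lower, the counts were 9 higher and 7 lower for complex I, 3 and 2 for complex III, 7 and 0 for complex IV, and 8 and 1 for complex V. With the length trend described below removed they were 19 and 4, 7 and 1, 9 and 0, and 11 and 0, in the same order of complexes.

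Within each library the summed counts of those of the 10 genes that belong to a complex were set against those of its nuclear subunits. Mt-nd3, Mt-nd6 and Mt-atp8 were not in these sums, although Mt-atp8 had more counts than Mt-atp6 in each library. For complex I, the 5 mitochondrial genes had 1.97, 1.85 and 1.96 counts per nuclear count in lactate libraries, against 4.25, 7.47 and 6.86 in control libraries. The log2 ratio was 0.95 ± 0.0492 in lactate and 2.59 ± 0.438 in control libraries (SD, n = 3), a difference of −1.64. For complex III, Mt-cyb had 4.28, 4.32 and 4.19 counts per nuclear count in lactate libraries, against 5.99, 10.1 and 9.00 in control libraries (log2 difference −0.94). For complex V, Mt-atp6 had 0.116, 0.123 and 0.106 counts in lactate libraries, against 0.138, 0.267 and 0.215 in control libraries (log2 difference −0.79). These 3 ratios did not overlap between groups (exact permutation p = 0.10 each, the smallest possible; adjusted p = 0.13 over the 4 complexes). For complex IV, where Mt-co1 outweighed the other genes, the ratio was 22.2, 22.0 and 19.7 in lactate libraries, against 21.0, 32.8 and 31.1 in control libraries, and the groups overlapped (log2 difference −0.39; exact permutation p = 0.30, adjusted p = 0.30). Control replicate 1 was the lowest control for each complex.

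**Figure D4:**
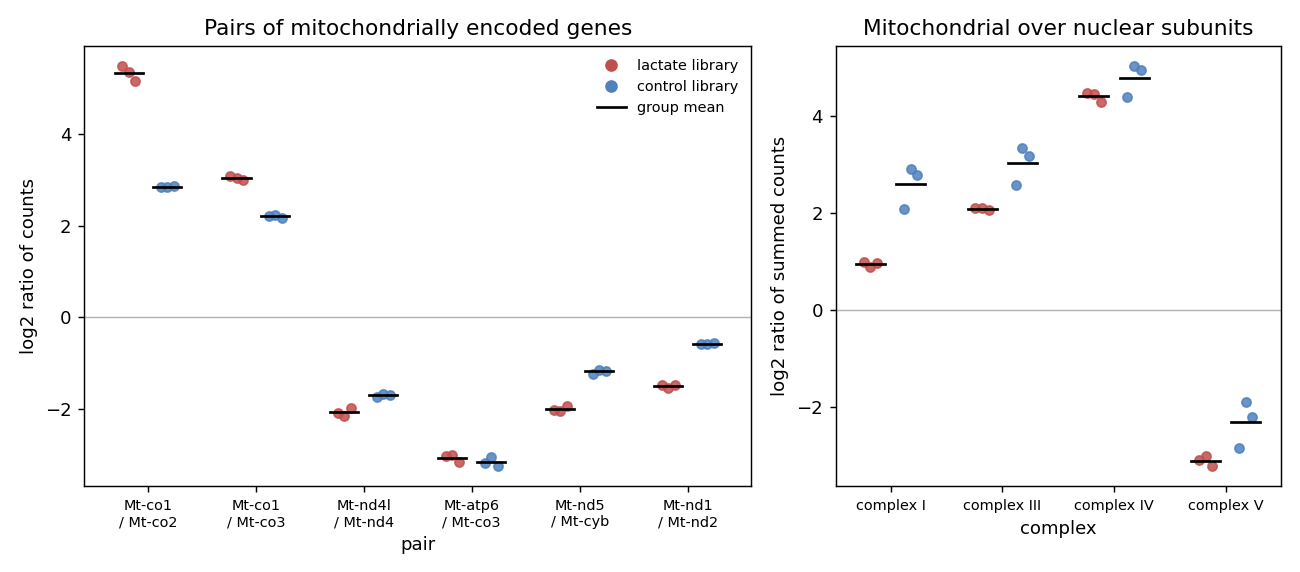
Log2 ratio of counts for 6 pairs of mitochondrially encoded genes (left) and of summed mitochondrially encoded over summed nuclear subunits of 4 complexes (right), with lactate libraries left of control libraries, a point per library and a bar at the group mean. The mitochondrially encoded sums leave out Mt-nd3, Mt-nd6 and Mt-atp8. Mt-co1 over Mt-co2 averages 5.33 in lactate and 2.85 in control libraries, and only Mt-atp6 over Mt-co3 and complex IV overlap.

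Genes that copy, transcribe, process and translate the mitochondrial genome were called in both directions with TMM factors, where 31.4% of all genes tested were higher and 34.6% lower, and mostly lower with library totals, where 12.5% were higher and 61.8% lower. For mtDNA maintenance, 7 of 10 genes were lower and 1 higher (median −1.09), and with library totals 8 were lower and 0 higher (median −1.94). The log2 fold change was −0.97 ± 0.11 for Polg, the mtDNA polymerase, −1.20 ± 0.17 for the helicase Twnk, −2.02 ± 0.12 for the ligase Lig3 and −2.28 ± 0.27 for Primpol, a primase and polymerase. Of 8 transcription genes, 2 were higher and 3 lower, near the shares over all genes, and with library totals 1 was higher and 5 lower. The count of higher genes also dropped to 1 with upper-quartile factors, with no filter on low counts, with the replicate block, and without each control replicate or lactate replicate 3 in turn. Polrmt, the mitochondrial RNA polymerase, was not called (0.38 ± 0.17; edgeR adjusted p = 0.079), while the elongation factor Tefm fell by 2.37 ± 0.34, Mterf3 fell by 0.86 ± 0.14, Tfb1m, which methylates the small rRNA, fell by 1.09 ± 0.21, and Mterf4 rose by 1.65 ± 0.20. Tfam, which packages mtDNA, was not called with TMM factors (0.24 ± 0.16; edgeR adjusted p = 0.21) but was called lower with library totals (−0.61, edgeR adjusted p = 0.017). Polrmt was not called with library totals (−0.46, edgeR adjusted p = 0.075) but was called higher with the length trend described below removed (0.77, edgeR adjusted p = 0.0041).

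Of 19 genes of mitochondrial RNA processing and modification, 7 were higher and 7 lower, and 2 and 11 with library totals. The poly(A) polymerase Mtpap rose by 1.54 ± 0.12 and the tRNA modifier Trit1 by 2.37 ± 0.13, while the pseudouridine synthase Trub2 fell by 2.13 ± 0.23 and the tRNA methyltransferase Trmt5 by 1.73 ± 0.20. Of 16 genes of mitochondrial mRNA stability and decay, 4 were higher and 6 lower, and 1 and 13 with library totals. Tbrg4 (FASTKD4) rose by 1.22 ± 0.12, while Fastkd2 fell by 1.34 ± 0.18, Ptcd3 by 1.25 ± 0.16 and the RNase Rexo2 by 1.01 ± 0.14. Lrpprc, which stabilises most mitochondrial mRNAs, averaged 60.28 ± 5.41 CPM in lactate and 60.27 ± 6.29 CPM in control libraries (SD, n = 3). Lrpprc was called lower with library totals (−0.87, edgeR adjusted p = 0.00023) and higher with the length trend removed (0.44, edgeR adjusted p = 0.011). Its partner Slirp was higher (0.71 ± 0.22; edgeR adjusted p = 0.021) but lost the call with library totals (−0.14). Of 15 translation genes, 4 were higher and 5 lower, and 0 and 10 with library totals. With TMM factors these shares of the lists lay near those over all genes. Taco1, the translational activator of Mt-co1, was 0.180 ± 0.0892 CPM in lactate and 1.82 ± 0.126 CPM in control libraries (SD, n = 3; log2 fold change −3.31 ± 0.45; edgeR adjusted p = 0.00019), from 13 counts in all lactate libraries and 263 in all control libraries, the opposite direction to the Mt-co1 transcript. The initiation factor Mtif3 fell by 2.26 ± 0.19, while the elongation factor Tufm rose by 1.20 ± 0.11 and the membrane insertase Oxa1l by 0.90 ± 0.13. Tufm and Oxa1l were not called with library totals. Polrmt, Tfam, Lrpprc and Slirp were named after their values were seen.

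**Figure D5:**
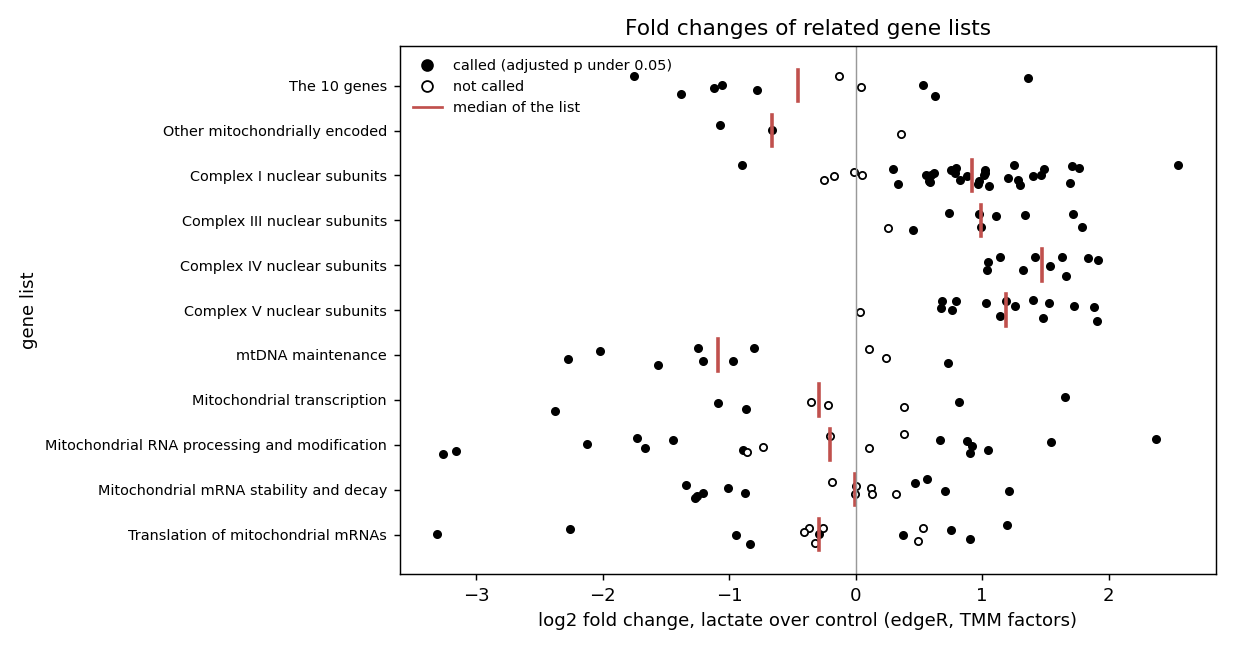
Log2 fold change of lactate over control (edgeR with TMM factors) for the 10 genes, the other mitochondrially encoded genes, nuclear subunits by complex, and genes that maintain and express the mitochondrial genome; filled points were called, open points not, and a bar marks the median of each list. Nuclear subunits lie mostly above 0, with medians from 0.92 to 1.48, while the 10 genes spread from −1.75 to 1.36.

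Fold changes over all genes also followed length, taken as counts over FPKM of each gene. The median log2 fold change was 0.78 in the shortest 10% of genes and −0.60 in the longest 10%. With this trend removed, Mt-co1 (1.37), Mt-nd4l (−2.80), Mt-co2 (−1.61), Mt-nd4 (−1.42), Mt-nd1 (−1.25) and Mt-nd5 (−0.64) had the same direction and call, and Mt-co3 (0.17) and Mt-atp6 (0.14) were not called. That left 1 of the 10 genes higher and 5 lower, where 34.9% of all genes tested were higher and 28.9% lower, 63.7% in all. The lengths used, relative to Mt-co1, ranged from 0.192 for Mt-nd4l to 1.18 for Mt-nd5. Genes on 1 mRNA thus got unlike lengths, with 0.892 for Mt-nd4, 0.132 for Mt-atp8 and 0.441 for Mt-atp6. Removal of the trend moved Mt-nd4l from −1.75 to −2.80 but Mt-nd4 only from −1.38 to −1.42. It moved Mt-atp8 from 0.36 to −0.80 and Mt-atp6 from 0.63 to 0.14. For such pairs the removal rests on the lengths of single genes, not of the shared mRNA. The genes whose log2 CPM followed the summed 10 genes most closely over the 6 libraries, of 7769 genes compared, were Dnajc15, Vps28 and Tmub1, with Pearson correlations of 0.998, 0.998 and 0.997. These describe 6 points that fall into 2 groups sharing scaling factors. Nuclear copies of mitochondrial sequence and the overlaps of Mt-nd4l with Mt-nd4 and of Mt-atp8 with Mt-atp6 make the split of reads between such rows uncertain.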

How the data were processed

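RNA of rat nucleus pulposus cells was made into 3 lactate and 3 control libraries with an mRNA kit, per the labels. The authors deposited, per the file headers, raw read counts and FPKM per gene for each library, with log2 fold changes, p-values and adjusted p-values of their own comparison. For the aligner, annotation, counting tool and strand setting nothing was given in the sources used here. Mouse builds (GRCm38, mm10) stand in the submitters' processing notes beside rat gene names in the tables, so no coordinates are given.

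Counts of 17273 genes were filtered with filterByExpr (13747 kept), scaled with TMM factors and tested in edgeR 4.0.16 (R 4.3.3) by quasi-likelihood, group being the only term, with Benjamini-Hochberg adjustment over all genes. Single values were compared with exact permutation tests (scipy 1.17.1). Lists are described by counts and medians and were not tested as sets. On simulated data of 13600 genes for lactate against control, edgeR recovered 81 of 100 planted 2-fold and 100 of 100 planted 4-fold changes, with 6 false calls. The simulation planted as many increases as decreases and no shift with scaling or length, whereas 66.0% of genes tested were called in the data. It therefore cannot speak for false calls that come from the scaling or the length trend. Alternatives were other scalings and filters, DESeq2 1.42.0, limma 3.58.1 (voom, and trend on log2(FPKM + 1) or log2(FPKM + 0.1)), a replicate block, removal of a length trend (loess on counts over FPKM), and each library left out. Named genes were the 10 genes, the other mitochondrially encoded genes, up to 4 called genes of each list with the smallest p, of which some are not described, and the 3 genes most correlated with the sum. The genes, lists and tests were chosen with earlier results of these data known. The authors' shorter table of selected genes was not used.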

Additional observations from a re-analysis of the deposited data

How the results depend on the processing

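Library totals gave 1722 genes higher and 8492 lower, log2(FPKM + 1) gave 1781 and 8759, and log2(FPKM + 0.1) gave 1770 and 8737, where TMM factors gave 4319 and 4760. Of the 10 genes, these 3 settings called 1 higher and 8 lower, and removal of the length trend called 1 higher. Mt-co1, Mt-co2, Mt-nd1, Mt-nd4, Mt-nd4l and Mt-nd5 had the same direction and call in all 18 alternatives to the fit with TMM factors. Under library totals, log2(FPKM + 1) and log2(FPKM + 0.1), Mt-cyb turned to −0.81 in each, Mt-co3 to −0.33, −0.32 and −0.32, and Mt-atp6 to −0.23, −0.22 and −0.22. Mt-cyb was also at −0.11 with upper-quartile factors, −0.055 with the length trend removed and −0.10 without control replicate 1 (leave-one-out range −0.10 to 0.16), and Mt-nd2 ranged from −0.31 without control replicate 1 to 0.0099 without control replicate 2. Against the sum without Mt-co1, 3 genes were higher, with Mt-nd2 at 0.085, Mt-cyb at 0.25, Mt-co3 at 0.74 and Mt-atp6 at 0.84; Mt-co3 relative to the full sum was called lower without control replicate 1 (−0.20; edgeR adjusted p = 0.022). The summed share of the 10 genes differed by −0.26 percentage points, and by 0.29 when the 20 most abundant other genes were left out of the total. With FPKM, the Mt-co1 share of the sum differed by 26.6 percentage points (25.3 with counts) and that of Mt-atp6 by 0.12 (−0.084 with counts). The cause of these shifts was not tested. Leaving out 1 library gave 3922 to 4489 genes higher and 4091 to 4918 lower, 3 of the 10 genes higher and 5 to 6 lower, and a difference of the summed share of −0.58 to −0.047. The replicate numbers of the labels did not pair the libraries (correlations of same-numbered deviations 0.018, 0.050 and 0.099), and the replicate block gave 4190 genes higher and 4624 lower, with 3 of the 10 genes higher and 5 lower. With 3 libraries against 3, the exact permutation test cannot give a p under 0.10, so a change of the summed share of any size stays above 0.05.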
